A study of Mus musculus with 6 samples.

Results

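The genes described here encode the machinery of synaptic vesicle release: the synaptotagmins, the SNARE proteins, the scaffold of the active zone, the Rab3 proteins with their effectors, the complexins and the proteins of the vesicle itself. A list of 49 symbols was matched to the gene names in the authors' comparison table and joined by Ensembl identifier to the count table, and 49 of 49 were found among 52550 genes. Hippocampal RNA was sequenced in 6 libraries from male mice of the C57BL/6J strain, and the labels list each library as a separate sample without saying whether animals were pooled. TAF15 OE mice (n = 3) had received a TAF15 adeno-associated virus in the CA1 region of both hippocampi, and its label names CaMKIIα, the promoter of a kinase of excitatory neurons. Control mice (n = 3) had received a control virus by the same surgery, and what it carries is not stated in the labels. Mice of both groups were injected at 8 weeks of age and the titles give 31 days. The whole hippocampus was taken, so cells outside the injected region, and glia, are in every library.

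A synaptic vesicle docks at the active zone, where RIM, Munc13, bassoon, piccolo, ELKS and liprin-α proteins hold it near calcium channels. Munc13 and the syntaxin, SNAP-25 and synaptobrevin SNAREs prime it for fusion, complexin clamps and then assists the SNARE complex, and calcium binding to synaptotagmin triggers fusion. Rab3, a small GTPase on the vesicle, acts through RIM and rabphilin, and synapsins tether the reserve pool. In the hippocampus these proteins serve fast glutamate and GABA release and the presynaptic forms of plasticity.

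The upstream sequence of 3 members is shown first. The priming paralogs Unc13a and Unc13b were picked from 10 pairs after their ratio was seen to differ between groups by several times its SD. With 3 libraries against 3 no pair could pass (exact permutation test, p = 0.10, adjusted p = 0.25), so this difference is a description. Syn1 is shown because it alone among the members with a promoter entry held a full cAMP response element. Each stretch lies before the annotated RefSeq start in GRCm38.p6, is written 5′ to 3′ on the gene's strand in lower case, and leaves out any base that GENCODE M21 annotates as exon. Capitals mark the GC box GGGCGG, the cAMP response element TGACGTCA or the left part TCAGCACC of the RE1 element, the site of the neuronal repressor REST, on either strand.
Unc13a, chr8:71671758-71672007, minus strand: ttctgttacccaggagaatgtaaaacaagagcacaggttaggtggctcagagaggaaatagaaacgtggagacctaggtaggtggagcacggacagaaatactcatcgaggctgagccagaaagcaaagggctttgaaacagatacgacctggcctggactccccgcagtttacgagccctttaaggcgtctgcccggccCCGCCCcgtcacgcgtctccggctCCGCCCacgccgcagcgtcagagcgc
Unc13b, chr4:43058703-43058952, plus strand: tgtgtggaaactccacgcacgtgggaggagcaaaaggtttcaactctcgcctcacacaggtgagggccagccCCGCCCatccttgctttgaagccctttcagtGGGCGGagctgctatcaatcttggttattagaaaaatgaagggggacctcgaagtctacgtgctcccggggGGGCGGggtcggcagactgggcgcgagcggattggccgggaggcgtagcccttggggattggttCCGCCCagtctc
Syn1, chrX:20921005-20921168, minus strand: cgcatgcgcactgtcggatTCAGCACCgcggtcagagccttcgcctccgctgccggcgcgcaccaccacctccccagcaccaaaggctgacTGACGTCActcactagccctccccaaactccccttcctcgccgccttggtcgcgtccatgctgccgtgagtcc

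Unc13a held 2 GC boxes in this stretch and Unc13b held 4. In Syn1 the cAMP response element began 159 bases and the RE1 part 231 bases before the RefSeq start. The printed Syn1 stretch covers only positions -250 to -87 from that start, because exon bases were left out. RefSeq windows of 250 bases before to 50 after a start were found for 37 members, with 51 starts in all. The GC box was in 74.5% of these windows, against 59.1% of 15194 windows of tested genes. The RE1 part was in 4 of the 51 windows (7.84%), at Syn1, Unc13a, Ppfia1 and Ppfia3, against 1.74% of the windows of tested genes. The match of Unc13a is not within the stretch printed above. The cAMP response element was in 1.96% against 2.82%. TCGTG, the core that NPAS4 dimers bind, was in 19.6% against 20%. The 4 motifs were searched on both strands, none is contained in another, and a match is a string of letters, not a measured binding site. For 38 of the 51 windows, the bases just after the start were found in a GENCODE M21 transcript of the same gene. Members without an entry in the table were Syn3, Syt4, Syt5, Syt7, Syt12, Syt13, Syt17, Doc2a, Snap25, Syngr3, Rims2 and Vamp2.

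Libraries held between 14965464 and 16067000 counts. Taf15 stood at 61.7, 63.5 and 53.0 CPM (counts divided by the TMM-scaled library size) in Control 1, 2 and 3 against 249, 241 and 272 in TAF15 OE 1, 2 and 3, in the direction the labels give. Whether vector reads are among these counts cannot be told from a value per gene. Control 1 and TAF15 OE 1 stood apart in markers of choroid plexus, a tissue beside the hippocampus. The 8 markers summed to 147 and 1554 CPM there, against 4346 to 5054 in the other 4 libraries. Mitochondrial transcripts made up 4.23% to 4.50% of counts in Control and 4.87% to 5.56% in TAF15 OE, and their part in what follows was not tested.

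Part of the release machinery was modestly lower in TAF15 OE on the usual scale (TMM), where 41 of 49 log2 fold changes were negative. With libraries scaled on general neuron genes, the median log2 fold change of the members was -0.016, with 2 called lower and 7 higher. All tested genes had a median of 0.27 under that scaling. All 49 members passed the filter on low counts and were tested. On the usual scale 21 fell, 1 rose and 27 did not pass the test (edgeR's quasi-likelihood test, Benjamini-Hochberg adjusted p below 0.05 over 16758 genes). Among all tested genes 5.95% were called lower and 9.32% higher. The number lower was 10 without TAF15 OE 2, 11 without Control 1 and 13 without Control 3. The median log2 fold change of the members was -0.26, or -16.5%, and their values ran from -0.55 for Syt7 to 0.64 for Syt6, while the median of all tested genes was 0.026. In 29 members all TAF15 OE libraries lay below all Control libraries, as they did in 15.5% of all tested genes. The reverse held for 1 member, against 19.1% of all tested genes. The summed level of the members was 16681, 15520 and 15928 CPM in Control against 13680, 13136 and 13083 CPM in TAF15 OE, so the groups did not overlap. The sum over all tested genes did not overlap either, at 1000680 to 1037390 CPM in Control against 972917 to 996676 in TAF15 OE. In bulk tissue, fewer cells of a type and less RNA per cell cannot be told apart.

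**Figure D1:**
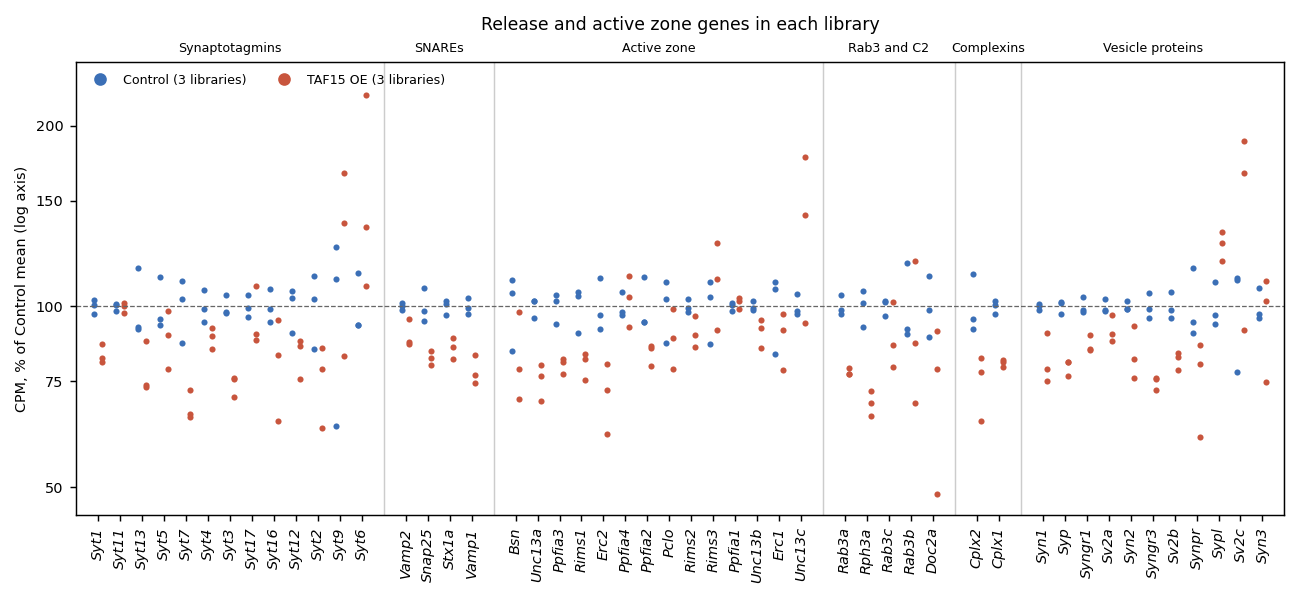
Level of each of the 49 genes in each library, as a percent of the Control mean CPM on a log axis, with genes ordered by Control level within each family (3 Control and 3 TAF15 OE libraries, 1 point each). In 29 genes all TAF15 OE points lie below all Control points, and Sypl is the 1 gene whose 3 TAF15 OE points all lie above the Control points.

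The genes that fell were among the abundant members. By the deposited FPKM, a level per gene length, 34 members had a mean of at least 10, and all 21 members that fell were among them. Over all 5017 genes at that level 15.8% were called lower, with a median log2 fold change of -0.087, against -0.29 in the 34 members. Of the 15 members below 10 FPKM, Sypl rose, and 7 of the 15 had a positive log2 fold change. The SE ran from 0.072 (Unc13b) to 0.32 (Syt9 and Sv2c) in these 15, against 0.062 (Cplx1) to 0.107 (Cplx2) in the 21 that fell. Syt2, at a log2 fold change of -0.40 (SE 0.137), did not pass the test, while Syngr1, at -0.21 (SE 0.064), did. Whether level itself bears on the change was not tested.

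Among the synaptotagmins, the vesicle and membrane proteins with paired C2 domains, 4 of 13 fell. Syt7, the slow, high-affinity calcium sensor of facilitation and asynchronous release, had the most negative fold change of all 49 genes (ENSMUSG00000024743, chromosome 19, 10389090 to 10453181, plus strand, GRCm38). Its level was 469, 368 and 436 CPM in Control 1, 2 and 3 against 308, 278 and 281 in TAF15 OE 1, 2 and 3, with no overlap. It fell by 0.55 (log2 change, SE 0.089, adjusted p = 0.00296), or -31.9%. Syt3, a high-affinity sensor tied to receptor internalisation and to fast vesicle replenishment, stood at 78.2, 73.4 and 73.0 CPM in Control against 56.9, 56.6 and 52.9 in TAF15 OE. It fell by 0.43 (log2 change, SE 0.071, adjusted p = 0.00325). All Control libraries of Syt3 lay above all of its TAF15 OE libraries.

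Syt1, the fast calcium sensor of synchronous release, was the most abundant synaptotagmin per length in Control (160 ± 2.01 FPKM, mean ± SD, n = 3). It stood at 1391, 1314 and 1360 CPM in Control against 1112, 1096 and 1172 in TAF15 OE, and fell by 0.27 (log2 change, SE 0.068, adjusted p = 0.0239). Syt13, which lacks calcium-binding residues, stood at 300.0, 239 and 237 CPM in Control against 226, 191 and 190 in TAF15 OE. Control 1 was its high library, and it fell by 0.35 (log2 change, SE 0.11, adjusted p = 0.0492). The call of Syt1 was lost without Control 1, Control 3 or TAF15 OE 2, and that of Syt13 without any 1 library other than TAF15 OE 1, at adjusted p of 0.0579 to 0.161. Syt3 and Syt7 were called with each library left out in turn.

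Syt11, which does not bind calcium and is found in glia as well as neurons, was next to Syt1 in level and had a log2 fold change near 0. It stood at 763, 784 and 779 CPM in Control against 757, 785 and 775 in TAF15 OE, with a log2 fold change of -0.0056 (SE 0.064) and an adjusted p of 0.967. Its share of the summed synaptotagmin FPKM was 25.6% ± 0.958 (SD, n = 3) in Control and 29.6% ± 0.632 in TAF15 OE, while that of Syt7 was 10% ± 1.04 and 7.92% ± 0.491. Below Syt1 and Syt11 came Syt13, Syt5 and Syt7, whose Control ranges overlapped with their neighbours, between 57.3 and 67.5 FPKM on average. Syt4 (25.2) and Syt3 (23.6) overlapped too, followed by Syt17 at 17.5 FPKM. The last 5, Syt16, Syt12, Syt2, Syt9 and Syt6, had means between 0.997 and 5.41 FPKM in Control.

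The synaptotagmins that did not pass the test had log2 fold changes of -0.17 for Syt4, -0.17 for Syt5, -0.069 for Syt17, -0.27 for Syt12 and -0.31 for Syt16. Syt2, the fast sensor of many inhibitory terminals, had -0.40 (SE 0.14, adjusted p = 0.0708). Positive values were seen for Syt6 (0.64, SE 0.26) and for Syt9 (0.37, SE 0.32). Syt6 stood at 5.50, 5.50 and 6.73 CPM in Control against 6.39, 13.3 and 8.01 in TAF15 OE, so that TAF15 OE 2 was far above the other libraries and TAF15 OE 1 overlapped with Control. Without TAF15 OE 1 Syt6 was called higher (adjusted p = 0.0285), and without TAF15 OE 3 Syt16 was called lower (adjusted p = 0.0353).

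Of the 4 SNARE genes, 3 fell. Snap25, the SNARE of the plasma membrane that supplies a pair of helices, stood at 1708, 1560.0 and 1500.1 CPM in Control against 1340, 1306 and 1269 in TAF15 OE. It fell by 0.28 (log2 change, SE 0.074, adjusted p = 0.0253). Vamp1, the vesicle SNARE synaptobrevin-1, stood at 139, 130 and 133 CPM in Control against 103, 111 and 99.8 in TAF15 OE, and fell by 0.36 (log2 change, SE 0.069, adjusted p = 0.00703). Vamp1 was called with each library left out.

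Stx1a, the syntaxin of the plasma membrane, stood at 106, 112 and 111 CPM in Control against 89.3, 96.9 and 93.7 in TAF15 OE, and fell by 0.23 (log2 change, SE 0.066, adjusted p = 0.0376). Its call did not survive the loss of any of the 6 libraries, and that of Snap25 was lost without Control 1, Control 2, TAF15 OE 2 or TAF15 OE 3, at adjusted p of 0.0600 to 0.0984. Vamp2, the main vesicle SNARE of the forebrain, was as abundant as Snap25 per length (230 FPKM for each in Control) and did not pass the test. Its levels were 903, 895 and 880 CPM in Control against 778, 772 and 850 in TAF15 OE, lower in every TAF15 OE library, with a log2 fold change of -0.16 (SE 0.068) and an adjusted p of 0.149.

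In the active zone, 4 of 14 genes fell, and the family's median was -0.17. Unc13a, which encodes Munc13-1, the priming factor of excitatory terminals, stood at 467, 439 and 468 CPM in Control against 366, 318 and 350.1 in TAF15 OE (ENSMUSG00000034799, chromosome 8, 71624417 to 71671757, minus strand, GRCm38). It fell by 0.41 (log2 change, SE 0.071, adjusted p = 0.00403), or -24.7%. Unc13b, which encodes Munc13-2, stood at 68.0, 65.5 and 66.1 CPM in Control against 63.1, 56.6 and 61.2 in TAF15 OE, and its log2 fold change of -0.14 (SE 0.072) did not pass the test (adjusted p = 0.220). Unc13c, which encodes Munc13-3, had 0.46 (SE 0.21, adjusted p = 0.178). Its Control libraries lay at 17.1, 17.3 and 18.5 CPM, and its TAF15 OE libraries spread from 16.5 in TAF15 OE 1 to 25.05 and 31.3 in TAF15 OE 2 and 3. Without TAF15 OE 1 it was called higher, at a log2 fold change of 0.65 (adjusted p = 0.00453).

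Erc2, the neuron-specific ELKS scaffold, stood at 233, 192 and 203 CPM in Control against 168, 152 and 128 in TAF15 OE, and fell by 0.49 (log2 change, SE 0.11, adjusted p = 0.0142). Its broadly expressed relative Erc1 had -0.17 (SE 0.12). Rims1, the RIM scaffold that links Rab3, Munc13 and calcium channels, stood at 195, 166 and 192 CPM in Control against 154, 139 and 151 in TAF15 OE, and fell by 0.32 (log2 change, SE 0.079, adjusted p = 0.0202). Its relatives Rims2 and Rims3 had log2 fold changes of -0.14 and 0.14 and did not pass. Ppfia3, the brain liprin-α3, stood at 235, 210.4 and 229.5 CPM in Control against 184, 182 and 174 in TAF15 OE, and fell by 0.32 (log2 change, SE 0.068, adjusted p = 0.0102). Ppfia2 had -0.26 (adjusted p = 0.0517), and Ppfia1 and Ppfia4 had 0.022 and 0.040, with signs that turned without TAF15 OE 1 (-0.016 and -0.052).

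The giant scaffolds bassoon and piccolo did not pass the test. Bsn, with the highest mean of the active zone genes per length (41.8 ± 5.40 FPKM in Control, a range that overlaps that of Unc13a at 35.6 ± 0.965), stood at 714, 573 and 750.5 CPM in Control against 664, 534 and 476 in TAF15 OE. The groups overlapped through Control 2 and TAF15 OE 1, and the log2 fold change was -0.28 (SE 0.14, adjusted p = 0.233). Pclo had -0.17 (SE 0.10). Without TAF15 OE 1, Bsn (-0.45, adjusted p = 0.0256) and Ppfia2 (-0.30, adjusted p = 0.0411) were called lower. The call of Erc2 was lost without TAF15 OE 2 and that of Rims1 without Control 1, Control 3 or TAF15 OE 2, at adjusted p of 0.0540 to 0.0903.

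Among Rab3 genes and C2-domain effectors, 2 of 5 fell. Rph3a encodes rabphilin, the Rab3 effector with paired C2 domains (ENSMUSG00000029608, chromosome 5, 120940499 to 121010092, minus strand, GRCm38), and had the smallest p among the members. It stood at 373, 325 and 356 CPM in Control against 254, 231 and 242 in TAF15 OE, and fell by 0.53 (log2 change, SE 0.073, adjusted p = 0.00129), or -31.0%. Rab3a, the main Rab3 GTPase of brain vesicles, stood at 512, 542 and 503 CPM in Control against 399.7, 410.2 and 399.9 in TAF15 OE. It fell by 0.36 (log2 change, SE 0.063, adjusted p = 0.00417), and its TAF15 OE libraries were nearly equal to each other. Both were called with each library left out.

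Rab3c, a close relative, stood at 492, 465 and 490.2 CPM in Control against 382, 416 and 490.1 in TAF15 OE. TAF15 OE 3 matched the Control libraries, and the log2 fold change of -0.17 (SE 0.088, adjusted p = 0.230) passed the test, among the fits that left out 1 library, only without TAF15 OE 3 (-0.28, adjusted p = 0.0396). Rab3b had -0.13 (SE 0.21), a sign that turned without Control 2 or TAF15 OE 1 (0.011 and 0.017). Doc2a, a C2-domain calcium sensor of spontaneous and asynchronous release, was scarce at 5.64 ± 0.655 CPM in Control against 4.10 ± 1.22 in TAF15 OE, with a log2 fold change of -0.46 (SE 0.24) and an adjusted p of 0.231.

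Both complexins fell. Cplx1 stood at 599, 571 and 589.9 CPM in Control against 479, 466 and 475 in TAF15 OE, and fell by 0.31 (log2 change, SE 0.062, adjusted p = 0.00807). Cplx2, the most abundant of the 49 genes per length (321 ± 31.1 FPKM in Control), stood at 1826, 1478 and 1533 CPM in Control against 1321, 1255 and 1040 in TAF15 OE. It fell by 0.42 (log2 change, SE 0.11, adjusted p = 0.0255). Control 1 was its highest and TAF15 OE 3 its lowest library. The call of Cplx2 was lost without Control 1, Control 3, TAF15 OE 2 or TAF15 OE 3, at adjusted p of 0.0554 to 0.0747.

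Of 11 genes of vesicle proteins, 6 fell and 1 rose. Syp, which encodes synaptophysin, the abundant vesicle membrane protein that binds synaptobrevin, stood at 706, 709 and 676 CPM in Control against 562, 534 and 562 in TAF15 OE. It fell by 0.33 (log2 change, SE 0.065, adjusted p = 0.00669). Sypl, its broadly expressed relative, was the 1 member that rose (ENSMUSG00000020570, chromosome 12, 32953891 to 32979860, plus strand, GRCm38). It stood at 42.2, 49.7 and 43.7 CPM in Control against 53.7, 57.5 and 60.2 in TAF15 OE, and rose by 0.34 (log2 change, SE 0.087, adjusted p = 0.0239). Synpr, the third relative, which marks mossy fibre and some interneuron terminals, stood at 157, 122 and 127 CPM in Control against 116, 108 and 81.9 in TAF15 OE, with a log2 fold change of -0.40 (SE 0.15) and an adjusted p of 0.115.

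Syngr3, a synaptogyrin of the vesicle membrane, stood at 142, 150.4 and 137 CPM in Control against 104, 109 and 108 in TAF15 OE, and fell by 0.42 (log2 change, SE 0.067, adjusted p = 0.00279). Its relative Syngr1 stood at 495, 497 and 523 CPM in Control against 427, 429 and 453 in TAF15 OE, and fell by 0.21 (log2 change, SE 0.064, adjusted p = 0.0465). The synapsin gene Syn1 stood at 585, 571 and 581 CPM in Control against 524, 456 and 435 in TAF15 OE, and fell by 0.30 (log2 change, SE 0.078, adjusted p = 0.0253). Its groups did not overlap. Syn2 stood at 664, 663 and 686 CPM in Control against 622, 548 and 510.0 in TAF15 OE, and fell by 0.26 (log2 change, SE 0.080, adjusted p = 0.0477). In both synapsins TAF15 OE 1 was the TAF15 OE library nearest to Control. Syn3, the scarcest member of the family at 1.04 FPKM in Control, had -0.063 (SE 0.15), with a sign that turned without TAF15 OE 3 (0.079).

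Sv2b, of the SV2 vesicle glycoproteins that act in priming, stood at 472, 439.6 and 426 CPM in Control against 366, 349 and 373 in TAF15 OE. It fell by 0.30 (log2 change, SE 0.067, adjusted p = 0.0134). Sv2a, the widespread family member and the target of levetiracetam, had 449 ± 10.8 CPM in Control against 410.3 ± 21.3 in TAF15 OE and did not pass the test (-0.13, SE 0.066, adjusted p = 0.222). Sv2c stood at 41.3, 29.0 and 41.6 CPM in Control, while TAF15 OE 1 and 2 lay at 70.3 and 62.2 and TAF15 OE 3 at 34.1, within the Control range. Its log2 fold change of 0.57 (SE 0.32, adjusted p = 0.317) passed the test, among the same kind of fits, only without TAF15 OE 3 (0.82, adjusted p = 0.0168). Without single libraries the calls of Sypl (Control 1, Control 3, TAF15 OE 2 or 3), Syn1 and Syn2 (each library but TAF15 OE 1), Sv2b (Control 1 or TAF15 OE 2) and Syngr1 (any of the 6) were lost, at adjusted p of 0.0538 to 0.169. Syp and Syngr3 kept theirs.

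The ratio of related genes within a library, which no scaling of libraries can move, was compared for 10 pairs. With 3 libraries against 3, an exact two-sided permutation test cannot give a p below 0.10, so no pair could pass, and the smallest adjusted p over the 10 pairs was 0.250. The groups did not overlap in 4 of the 10 pairs. Among single tested genes, 15.5% did not overlap with TAF15 OE lower and 19.1% with TAF15 OE higher. These are shares on scaled CPM, not on ratios, and no share over pairs of genes in general was computed. The count of pairs is near that share of single genes and is given as a description. Unc13a counts were 6.86, 6.69 and 7.08 times those of Unc13b in Control against 5.79, 5.62 and 5.72 times in TAF15 OE, a log2 difference of -0.27, with spreads (SD) of 0.041 and 0.022 (exact p = 0.10). Syt1 counts were 2.97, 3.57 and 3.12 times those of Syt7 in Control against 3.61, 3.94 and 4.16 times in TAF15 OE (log2 difference 0.28, exact p = 0.10).

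For Vamp1 over Vamp2 the ratios were 0.153, 0.145 and 0.152 in Control against 0.133, 0.144 and 0.118 in TAF15 OE (log2 difference -0.20, exact p = 0.10). Sv2b over Sv2a gave 1.06, 0.954 and 0.965 in Control against 0.933, 0.863 and 0.858 in TAF15 OE (log2 difference -0.17, exact p = 0.10). In these 4 pairs the lower ratio or the higher one was in every TAF15 OE library, although for Vamp1 over Vamp2 the nearest libraries were almost equal. The other 6 pairs overlapped: Syn1 over Syn2 (log2 difference -0.037), Cplx1 over Cplx2 (0.11), Bsn over Pclo (-0.12), Rims1 over Rims2 (-0.17), Rab3a over Rab3c (-0.19) and Erc1 over Erc2 (0.33).

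**Figure D2:**
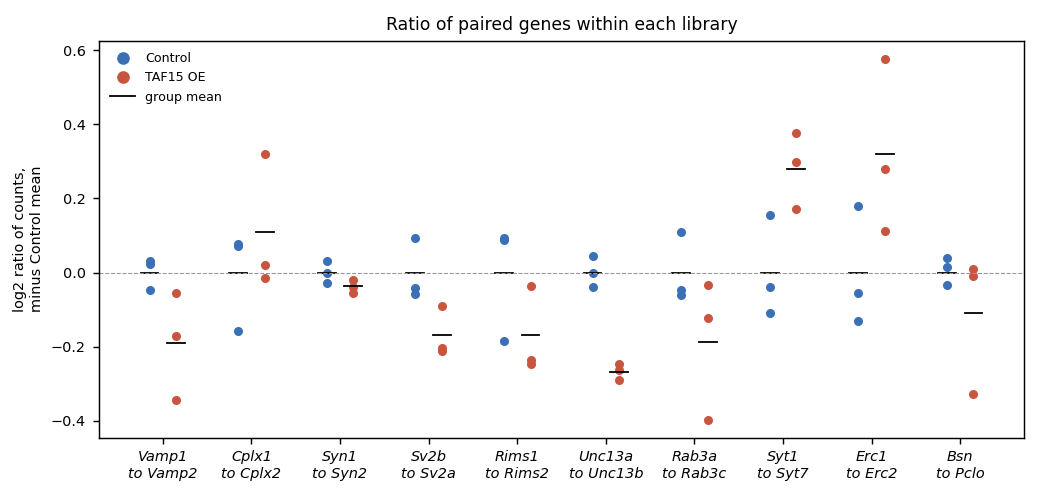
Log2 ratio of the counts of 2 related genes in each library, minus the Control mean of that pair, with 1 point per library and a line at each group mean. Unc13a over Unc13b lies near -0.27 in TAF15 OE with little spread, and the groups also do not overlap for Vamp1 over Vamp2, Sv2b over Sv2a and Syt1 over Syt7.

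General neuron genes that are not among the members were also lower on the usual scale. Of 15 such genes, 7 fell, with a median log2 fold change of -0.25, and their summed level was 9108 to 9382 CPM in Control against 7524 to 8527 in TAF15 OE. The largest parts of this sum were Meg3, Snhg11 and Map2 (means of 2573, 1153 and 1138 CPM in Control), none of which passed the test (adjusted p of 0.617 to 0.678). When each library was scaled so that these 15 genes had an equal mean log2 level, the median of the 49 members was -0.016, with 2 called lower and 7 higher. Rph3a (-0.29, adjusted p = 0.00916) and Syt7 (-0.31, adjusted p = 0.0167) were the 2 called lower. The 7 called higher were Sypl (0.58), Syt6 (0.88), Unc13c (0.71), Rims3 (0.39), Ppfia4 (0.28), Ppfia1 (0.27) and Syt11 (0.24). Of the 22 calls made on the usual scale 3 remained, and the signs of Stx1a (0.016) and Syngr1 (0.035) turned. The other signs that turned were those of Syt4, Syt5, Syt11, Syt17, Vamp2, Unc13b, Rims2, Pclo, Erc1, Rab3b, Rab3c, Syn3 and Sv2a, none of which had passed the test. A change of scaling shifts all genes by about the same amount, so these turned signs are 1 common shift. Under this scaling all tested genes had a median of 0.27, and the distance of the members from it, -0.29, equals that on the usual scale by construction.

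**Figure D3:**
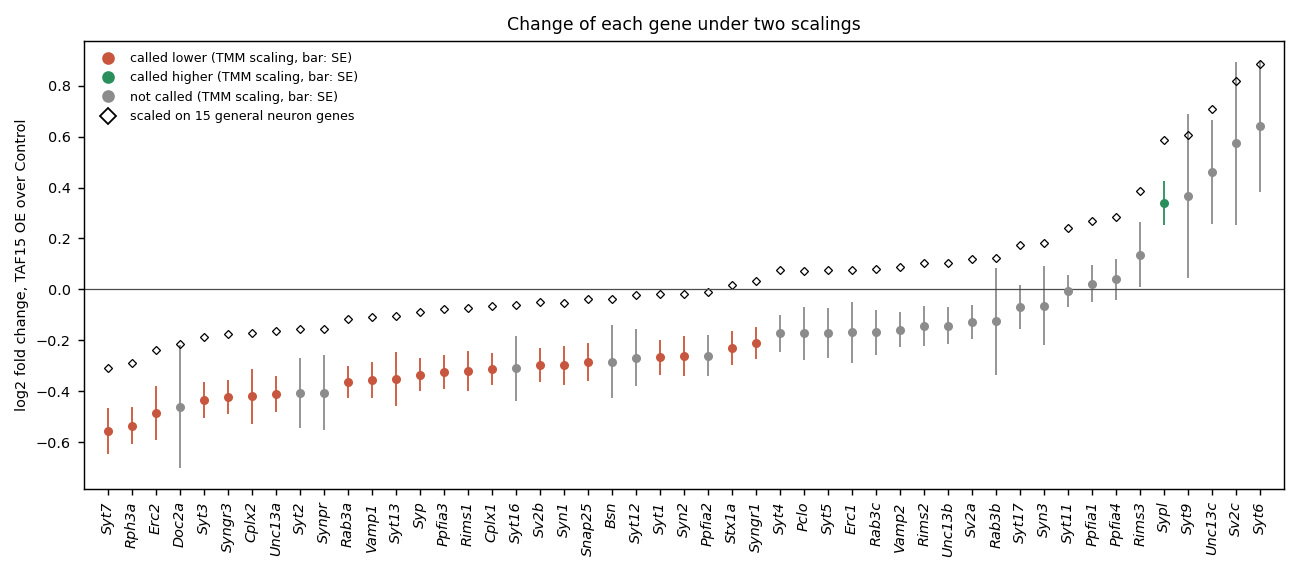
Log2 fold change of TAF15 OE over Control for each of the 49 genes, ordered by value, with bars of 1 SE (TMM scaling), and as open diamonds the value with libraries scaled on 15 general neuron genes. Under TMM scaling 41 values are negative and 21 genes are called lower, while with the neuron scaling the values lie around a median of -0.016, many signs turn, and Rph3a and Syt7 are the genes called lower.

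Many markers of astrocytes, microglia, oligodendrocytes and lymphocytes rose in TAF15 OE, those of oligodendrocyte precursors did not pass the test, and some markers of neuron classes fell. The 10 microglia markers summed to 542 to 589 CPM in Control against 1092 to 1705 in TAF15 OE, and 9 of 10 rose. The 9 astrocyte markers summed to 4990 to 6220 CPM in Control against 8627 to 9447 in TAF15 OE, and 7 rose. For the 8 oligodendrocyte markers the sums were 5042 to 5421 and 6202 to 8054 CPM, and 6 rose. Of 7 endothelial markers 3 rose, and of 8 tested lymphocyte markers 6 rose. The 9 lymphocyte markers summed to 6.90 to 32.3 CPM in Control and 84.7 to 176 in TAF15 OE. Most of this was Jchain in every library but Control 2, where Jchain made up 3.18 of 6.90 CPM. Jchain did not pass the test (adjusted p = 0.132). The other lymphocyte markers were scarce, with Control means of at most 0.824 CPM (Cd8a). The 4 markers of oligodendrocyte precursors had a median log2 fold change of 0.14, from -0.0017 to 0.34, and summed to 128 to 138 CPM in Control against 152 to 158 in TAF15 OE. Of the neuron classes, 4 of 6 excitatory markers fell (8247 to 9986 against 5525 to 6974 CPM), as did 3 of 6 dentate granule markers. Of CA1 markers 1 of 6 fell, of CA2 and CA3 markers 1 of 6 and of interneuron markers 2 of 9. Among all tested genes 5.95% were called lower and 9.32% higher. The CA2 and CA3 markers had 3 positive and 3 negative log2 fold changes, with a median of -0.028. Dentate granule sums overlapped, at 391 to 496 CPM in Control against 286 to 436 in TAF15 OE. Interneuron sums overlapped too, at 782 to 846 CPM in Control against 686 to 817 in TAF15 OE. None of these markers was at 0 in all libraries, and their part in the falls of the members was not tested.

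**Figure D4:**
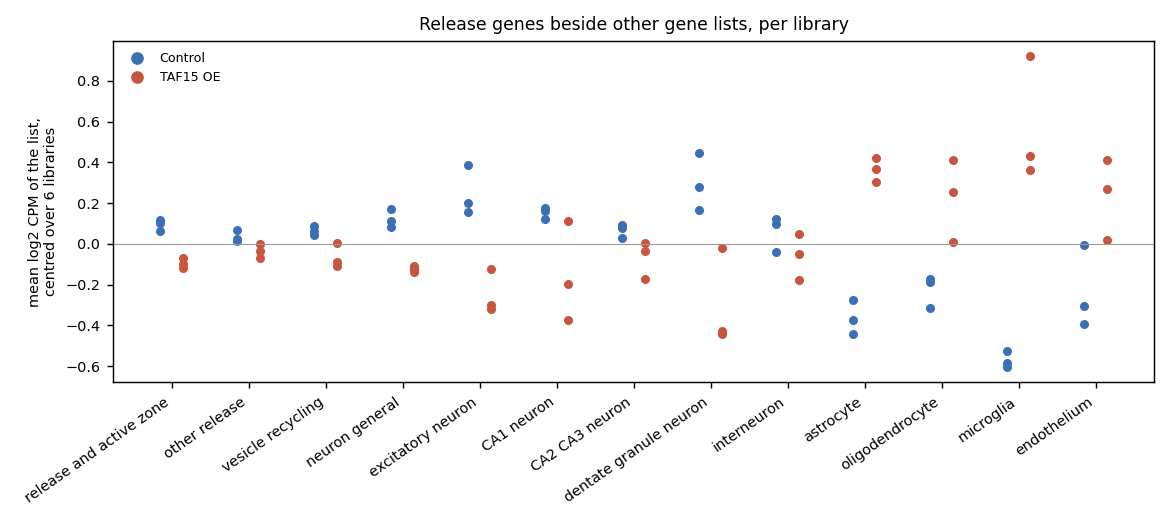
Mean log2 CPM of each gene list, centred over the 6 libraries, with 1 point per library. The 49 release and active zone genes (0.065 to 0.12 in Control and -0.12 to -0.067 in TAF15 OE) do not overlap between groups. The same holds for the other release, vesicle recycling, general neuron, excitatory, CA1, CA2 and CA3, and dentate granule lists, while the interneuron list overlaps. The astrocyte, oligodendrocyte, microglia and endothelium lists lie the other way around. So do all tested genes, not drawn (-0.0985 to -0.0356 in Control and 0.0502 to 0.07 in TAF15 OE).

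Other genes of the release and recycling pathways were described from longer lists. Of 43 tested release genes outside the 49, 11 fell and 2 rose, with a median log2 fold change of -0.16, against 15.3% of all tested genes called in either direction. The 13 calls came down to 5 without Control 1 or TAF15 OE 2, 6 without Control 3, 7 without Control 2 and 8 without TAF15 OE 3, and to 2 with limma on unfiltered FPKM. Doc2b, a calcium sensor of spontaneous and asynchronous release related to Doc2a, fell by 0.98 (log2 change, SE 0.13, adjusted p = 0.00317), from 151 ± 27.4 to 76.6 ± 6.74 CPM. Nsf, the ATPase that takes used SNARE complexes apart, fell by 0.38 (log2 change, SE 0.068, adjusted p = 0.00468), and Lin7b, a scaffold of presynaptic and junctional complexes, by 0.70 (SE 0.14, adjusted p = 0.00708). The 2 that rose were Syngr2 (0.88, adjusted p = 0.0112) and Vamp3 (0.35, adjusted p = 0.0308), broadly expressed relatives of the neuronal synaptogyrins and synaptobrevins. Of 21 vesicle recycling genes, 7 fell and 1 rose (median -0.18), and these 8 calls came down to 3 without Control 1 or TAF15 OE 2, 4 without Control 2 or TAF15 OE 3, 5 without Control 3 and 2 with limma on unfiltered FPKM. Pacsin1 (-0.43), the amphiphysin gene Amph (-0.39) and Dnm1 (-0.38), the dynamin that cuts vesicles from the membrane, had the smallest p, at adjusted p of 0.00345 to 0.00656, and the clathrin adaptor gene Ston2 (0.36, adjusted p = 0.0361) was higher. The changes of the genes named in this paragraph are on the usual scale. With libraries scaled on general neuron genes, 12 other release genes and 7 recycling genes were called in either direction. Those counts do not say which of the genes named here still fell.

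In the authors' deposited table, 25 members were lower and 1 higher at an adjusted p below 0.05, against 7.53% and 8.51% of all genes with a value there. All 22 members called here were among those 26, and Syt2, Vamp2, Ppfia2 and Synpr were the others. DESeq2 run here on the same counts also gave 25 lower and 1 higher, with equal log2 fold changes for Syt1 (-0.2967) and Syt7 (-0.5845). The deposited calls are therefore not separate evidence. The authors' deposited table marks 558 genes as significant, 1.81% of its genes and none with an absolute log2 fold change under 1, and 0 of the 49 members are marked. In GENCODE M21, exons of 20 members overlap an exon of another gene, and for 6 (Doc2a, Rab3a, Syn1, Syn2, Syn3 and Unc13a) that neighbour had over 100 counts in a library. All 6 lie on the opposite strand, and since no source used here states whether counting used the strand, reads in those overlaps cannot be told apart.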

How the data were processed

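Hippocampal RNA was sequenced in 6 libraries after a TruSeq RNA kit, per the labels' protocols. The submitters' processing notes name the tools CASAVA, TopHat2, HISAT2 2.1.0 and Bowtie2 2.2.3 and the build GRCm38. What each tool did, the counter, the annotation release and the strandedness are not stated there. Raw counts per gene were deposited as whole numbers, and the authors' comparison table repeats them (100% of cells equal). The authors' FPKM table scales them by gene length and library total. The comparison table adds a normalised signal (mean count over size factors), a fold ratio, a log2 fold change, and p-values made by the authors with a test that no header names.

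Counts were fitted in edgeR 4.0.16 (R 4.3.3; filterByExpr with a minimum count of 10 and total of 15, TMM scaling factors of 0.964 to 1.03, robust quasi-likelihood test, group as the only term). The biological coefficient of variation was 13.1%. SE values derive from the F statistic. Adjusted p covers 16758 genes. Levels between genes use FPKM. Paralog ratios had 0.5 added to each count and an exact permutation test. Members and lists were chosen with earlier results of these data known. Every member was described, with full values for the called members and the most abundant of each family. Other genes were named from the pathway lists by smallest p, and genes whose call or sign turned with 1 library left out were named for that reason.

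Alternatives were DESeq2 1.42.0 and its size factors, total counts, scaling on neuron genes, other filters, limma 3.58.1 (voom, and trend on log2 FPKM with pseudocounts of 1 or 0.1 and a minimum mean of 0.5 FPKM), a replicate block and libraries left out. No libraries were duplicates (chi-square per degree of freedom at least 5.15 within groups). The labels give no batch, and p-values measure only the spread between these samples, which may be technical. Figures used matplotlib 3.10.9.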

Additional observations from a re-analysis of the deposited data

How the results depend on the processing

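Over 882 values (the 49 genes under 18 alternatives), 722 kept direction and side of the threshold, 103 lost the call, 29 gained it and 28 changed sign, 15 of these with libraries scaled on general neuron genes. The 882 include members not called on the usual scale, which had no call to lose. A value that changed sign was counted only as such. Among those 28, Stx1a and Syngr1 also lost a call and Syt11 gained one under the scaling on general neuron genes. That scaling gave 2 members lower and 7 higher, a median log2 fold change of -0.0157 and 5669 as the number of all genes called. Its reversed values were 0.075 for Syt4, 0.076 for Syt5, 0.24 for Syt11, 0.1755 for Syt17, 0.016 for Stx1a, 0.089 for Vamp2, 0.1049 for Unc13b, 0.1041 for Rims2, 0.074 for Pclo, 0.078 for Erc1, 0.1229 for Rab3b, 0.079 for Rab3c, 0.1809 for Syn3, 0.035 for Syngr1 and 0.1181 for Sv2a. Among all calls 61.0% were higher with TMM, 72.0% with total counts and 97.0% with the neuron scaling. The Syt11 log2 fold change turned to 0.0415 with total counts, to 0.040 with limma on log2(FPKM + 1) with and without the filter, and to 0.041 with a pseudocount of 0.1. The Ppfia1 log2 fold change turned to -0.0070 with no filter on counts, -0.0079 in DESeq2, -0.016 without TAF15 OE 1 and -0.0084 without Control 1 and TAF15 OE 1. Ppfia4 turned to -0.052 and -0.077 in the last of these fits, Rab3b to 0.011 without Control 2 and 0.017 without TAF15 OE 1, and Syn3 to 0.079 without TAF15 OE 3. With 1 library left out these values ran from -0.016 to 0.030 for Ppfia1, -0.052 to 0.10 for Ppfia4, -0.37 to 0.017 for Rab3b and -0.20 to 0.079 for Syn3. The median of the members was -0.215 with total counts, -0.289 with no filter and -0.290 in DESeq2. With limma on FPKM the median was -0.196 (pseudocount 1), -0.215 (0.1) and -0.196 (no filter). In these 3 fits 14, 14 and 8 members were lower and 0 were higher, 7, 8 and 2 other release genes and 4, 4 and 2 recycling genes were called, and 1551, 1630 and 669 genes in all. No filter on counts gave 3 members higher, and the fit without Control 1 and TAF15 OE 1 gave 21 lower and 2 higher. With 1 library left out, 10 to 21 members were lower and 0 to 3 higher, the median ran from -0.286 to -0.231, 5 to 15 other release genes, 3 to 9 recycling genes and 1331 to 2501 genes in all were called. Calls were lost most often without TAF15 OE 2 (12 members) and Control 1 (11), and least without TAF15 OE 1 (2). Beyond scaling, and beyond the fewer samples of the fits that leave libraries out, the cause was not tested. With the replicate number as a block, 23 members were lower and 1 higher, and 3291 genes were called against 2559. Deviations of same-numbered libraries correlated at 0.126, 0.0776 and 0.0871 across genes, and each library correlated best with its own number, a hint from the data and not the design, so the numbers were not taken as pairs. The 4 paralog pairs without overlap stayed 4 with no count added and with FPKM. Depth limits the scarcest members, such as Doc2a and Syt6.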
